A study of Daphnia magna with 24 samples.

Results

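Water collected downstream of the Walker Mine tailings was compared with water collected upstream of the mine through the gene expression of whole Daphnia magna, a water flea widely used to test the toxicity of fresh waters. The comparison takes 12 of the 24 two-colour arrays of the study, chosen by their titles: 6 arrays of tailings water and 6 of upstream water. Each site had 3 exposures, each of 10 to 15 pooled adult females of a purchased, genetically homogeneous stock, 14 to 16 days old, held in the laboratory for 24 h in the field water. Each exposure was hybridised on 2 arrays with the Cy3 and Cy5 dyes exchanged. The other channel of every array held animals that had not been exposed to field water and lived in COMBO, a defined culture medium, so each site was measured as a ratio to COMBO animals and both sites were compared through these ratios. The 2 remaining sites, the mine portal and Little Grizzly Creek, had 3 exposures each and entered the estimate of the spread.

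Copper is an essential cofactor of respiratory and antioxidant enzymes, and in excess it is toxic to aquatic crustaceans, in which it disturbs ion uptake and causes oxidative damage. Cells hold surplus copper with chaperones and metallothioneins, small metal-binding proteins whose synthesis is induced by metals in many animals. The study's design text states that the waters carried different amounts of copper and gives no concentrations. Other properties of the waters are not stated, and every exposure of a site used water from that site, so copper and other properties of a site cannot be told apart.

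The values are log ratios as deposited, read as log2 of exposed over COMBO animals, and the direction is likely but not stated. If it is the opposite, every rise is a fall. In all, 7680 features were listed on each array and 0 of their identifiers matched a gene in the RefSeq table of Daphnia magna, so features are counted and a few are named by identifier only, with no gene, function or sequence attached. The tailings and upstream arrays held 6712 to 7548 values each. Array medians lay between -0.0265 and 0.0156. The 2 arrays of an exposure correlated across features at 0.816 to 0.87 in tailings water and at 0.714 to 0.839 in upstream water. The SD over features was 0.485, 0.517 and 0.781 in tailings exposures 1, 2 and 3, and 0.544, 0.282 and 0.577 in upstream exposures 1, 2 and 3. Upstream exposure 2 also stood apart in direction: it correlated with upstream exposures 1 and 3 at -0.0726 and -0.264, while those 2 correlated with each other at 0.574. Among 15 pairs of arrays of the Cy5 orientation at both sites, 2 had a correlation below -0.3: upstream exposures 2 and 3 (-0.353), and upstream exposure 3 with tailings exposure 2 (-0.376). No pair of arrays of the Cy3 orientation fell below -0.3. The sign of single upstream exposures is treated as not settled because of the Cy5 pairs. Counts with either sign turned are given beside the main ones.

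Of 6504 tested features, 384 (5.9%) differed between the sites by limma at an adjusted p under 0.05. In tailings water 324 features (4.98%) were higher and 60 (0.923%) were lower than in upstream water. A feature was tested where at least 2 exposures of each of the 4 sites had a value, and both arrays of an exposure had to have one. The difference had a median size of 0.688 log2 units among those higher and of 1.16 among those lower, against 0.212 over all tested features. The largest differences were 3.69 upward and 3.19 downward. The call favours values that stand apart. In the 351 changed features with all 6 values the 3 tailings exposures did not overlap the 3 upstream exposures. This was so in 31.1% of the 5264 tested features with all 6 values (tailings above in 17.8% and below in 13.3%). With the sign of upstream exposure 2 turned, 107 features passed, 81 of them higher, and with that of exposure 3 turned, 110 passed, 85 of them higher. Without tailings exposures 1, 2 and 3 in turn the count was 191, 166 and 212, and without upstream exposures 1, 2 and 3 it was 122, 174 and 33.

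Departure of each site from COMBO animals was tested by limma against a ratio of 0, with adjustment over the same 6504 features. In 297 of the 384 changed features only the tailings mean departed from 0, in 4 only the upstream mean did, in 1 both did, and in 82 neither passed. The tailings mean thus departed from 0 in 298 of the changed features (77.6%), against 8.49% of all tested features, and the upstream mean in 5, against 0.0769%. The tailings mean departed in 254 of the 324 higher ones (6.12% of all tested features departed upward) and in 44 of the 60 lower ones (2.37% departed downward). These shares describe the changed features and are no independent result, because the difference and both tests use the same exposure values. By size alone the tailings mean lay farther from 0 than the upstream mean in 317 changed features (82.6%), against 50.8% of all tested features. The upstream mean lay within 0.5 log2 units of 0 in 350 of the 384, close to the share over all tested features (91.1% against 92.9%).

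The count of upstream departures changed with the estimate of the spread and with other settings. The fit gives all sites 1 spread, and the median SD among exposures over the tested features was 0.177 in tailings water and 0.142 in upstream water. With a variance of its own for each site, 575 features differed and the upstream mean departed from 0 in 167 of them, while the tailings mean departed in 361. With weights per exposure these 3 counts were 835, 272 and 453. They were 276, 79 and 167 with quantile normalisation, and 398, 58 and 255 with scale normalisation. Without portal exposure 3 they were 529, 76 and 382. At an unadjusted p under 0.05 the upstream mean departed in 181 of the 384 (47.1%), against 16.7% of all tested features. The lead of tailings water by size held in all 23 alternatives. The tailings mean was farther from 0 in 67.4% to 100% of the features that each of them called. The highest shares, 98.1% and 100%, came from turning the sign of upstream exposure 2 or 3. Turning a sign draws the upstream mean toward 0 where its exposures agree, so these shares say little about the lead.

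**Figure D1:**
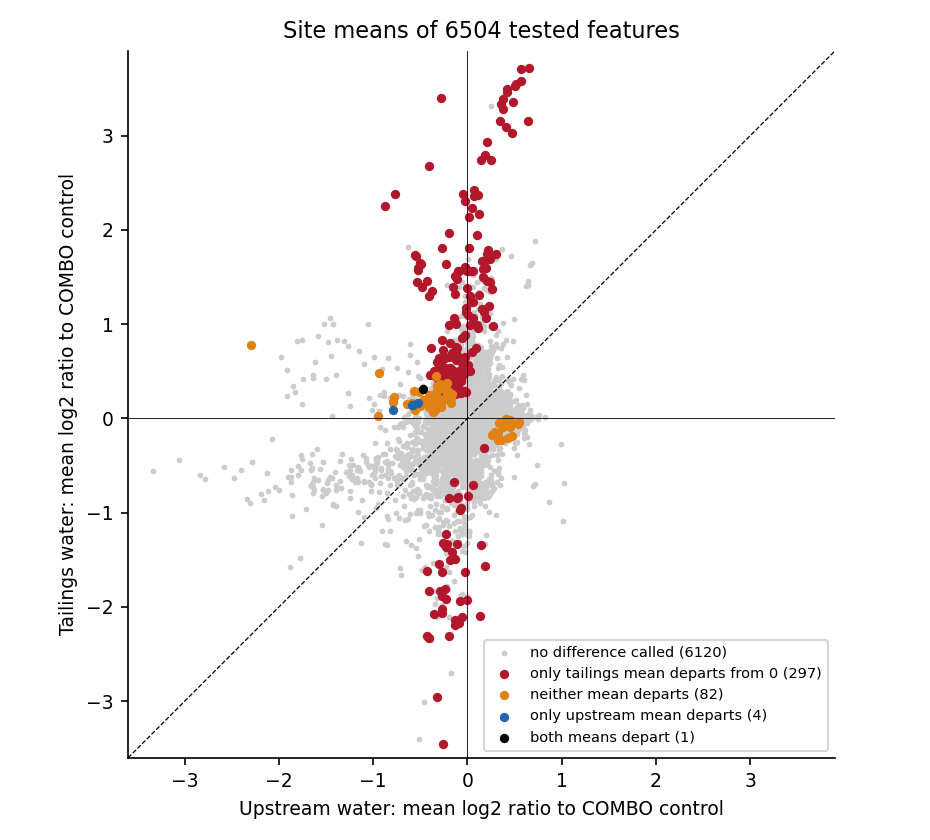
Mean log2 ratio to COMBO animals in tailings water (vertical axis) against upstream water (horizontal axis). Each point is 1 of 6504 tested features, coloured where the sites differed by limma at an adjusted p under 0.05 and by which mean departed from 0; the dashed line marks equal means. Of the 384 coloured points, 123 differ by at least 1 log2 unit, and these run mainly up and down near an upstream mean of 0. The remaining coloured points, which are more numerous, lie closer to the centre on both sides of 0.

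Large and small differences were divided differently between the sites. Among the 324 features higher in tailings water, 89 differed by at least 1 log2 unit. These had a median of 1.65 in tailings water and of 0.0322 in upstream water, and the tailings mean lay farther from 0 in 86 of them. The other 235 differed by less than 1 unit and had a median of 0.355 in tailings water and of -0.218 in upstream water. In 187 of them (79.6%) the tailings mean still lay farther from 0. The tailings mean departed from 0 in 168 of them and the upstream mean in 5. In 224 of these 235 (95.3%) the site means had opposite signs, against 49% of all tested features, so the smaller rises were sums of a positive tailings ratio and a negative upstream ratio. Among the 89 larger ones the means had opposite signs in 44.9%. That split by size was made after the values were seen and has no test.

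The call requires the exposures of a site to be close to each other, so their agreement in the changed features is a description. The medians of the 89 features were 1.73, 1.46 and 1.94 in tailings exposures 1, 2 and 3, against 0.0416, -0.125 and -0.00866 in upstream exposures 1, 2 and 3. In the 235 smaller rises the medians were 0.283, 0.436 and 0.32 in the tailings exposures, against -0.195, -0.161 and -0.303 in the upstream exposures. All 3 tailings medians were positive and all 3 upstream medians negative in the smaller rises. Over all tested features the exposure medians of both sites lay between -0.0271 and 0.0319, as the deposited arrays were already centred near 0.

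Among the 60 features lower in tailings water, 34 differed by at least 1 unit. In all 34 the tailings mean departed from 0, with a median of -1.86 in tailings water and of -0.23 in upstream water. Their exposure medians were -1.77, -1.81 and -1.78 in tailings water, against -0.329, -0.336 and -0.0273 in upstream water. The upstream mean was negative as well in 31 of these 34 but departed from 0 in none of them by limma. Without adjustment of the p-values it departed in 5 (14.7%, against 16.7% of all tested features). The 26 smaller falls had medians of -0.195 in tailings and 0.306 in upstream water, and the tailings mean departed from 0 in 10 of them.

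In 82 changed features neither mean departed from 0, and 3 of them differed by at least 1 log2 unit. Of the 82, 66 were higher in tailings water, with medians of 0.191 in tailings and -0.325 in upstream water, and 16 were lower, with medians of -0.116 and 0.391. In all 82 the means had opposite signs, against 49% of all tested features, and the upstream mean was the farther one in 60. The class itself favours opposite signs. Where the signs are equal, the larger mean exceeds the difference, which makes a departure from 0 more likely. All 16 lower ones had a positive ratio in every upstream exposure that had a value. In tailings water the same 16 had exposure medians of -0.000106, -0.15 and -0.189, against 0.376, 0.341 and 0.449 in upstream water, and the upstream mean was the farther from 0 in all 16. At an unadjusted p under 0.05 the upstream mean passed in 80 of the 82 and the tailings mean in 41 (16.7% and 19.6% of all tested features); this too describes features chosen by the same values.

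**Figure D2:**
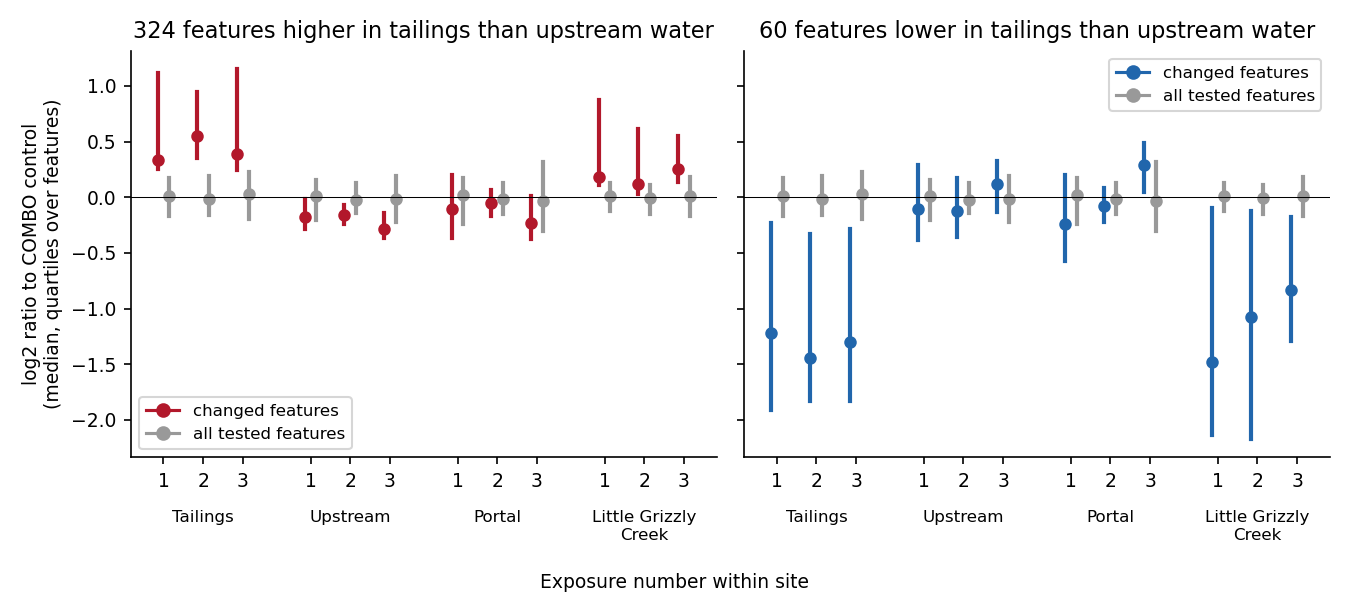
Median log2 ratio to COMBO animals in each exposure, with bars from the first to the third quartile over features. Coloured marks show the 324 features higher (left) and the 60 lower (right) in tailings than in upstream water; grey marks show all 6504 tested features. The left panel has all 3 tailings medians above 0 and all 3 upstream medians below 0; in the right panel the tailings medians lie between -1.22 and -1.44, and the upstream medians between -0.128 and 0.117.

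P7BD1 had the largest difference of all. It stood at 3.95, 2.68 and 3.58 in tailings exposures 1, 2 and 3, against -0.292, -0.284 and -0.278 in upstream exposures 1, 2 and 3. The upstream exposures were nearly equal as means of 2 arrays, while the 6 single upstream arrays ranged from -0.502 to -0.0669. The lowest of the 6 tailings arrays (2.59) was far above the highest of these. It averaged 3.40 ± 0.655 in tailings water and -0.285 ± 0.0071 in upstream water (SD, n = 3 each). The difference was 3.69 log2 units (95% interval 2.92 to 4.46; limma, adjusted p = 0.00136), about 12.9-fold. The tailings mean departed from 0 (limma, adjusted p = 0.000273) and the upstream mean did not pass (adjusted p = 0.618). It passed in all 22 alternatives that could be run for it. In the portal water P7BD1 was at 0.389 and -0.188 in exposures 1 and 2, and in Little Grizzly Creek water at 3.24, 2.33 and 2.95.

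P13CD12 had the largest fall. It stood at -3.17, -3.35 and -3.83 in tailings exposures 1, 2 and 3, against -0.684, -0.185 and 0.0841 in upstream exposures 1, 2 and 3. The groups were more than 2 units apart on every array, with tailings arrays from -4.71 to -2.91 and upstream arrays from -0.767 to 0.122. It averaged -3.45 ± 0.341 in tailings water and -0.261 ± 0.39 in upstream water (SD, n = 3 each). The difference was -3.19 (95% interval -4.04 to -2.34; limma, adjusted p = 0.00776). The tailings mean departed from 0 (limma, adjusted p = 0.000457), and the upstream mean did not pass (adjusted p = 0.685). The difference passed in 21 of 22 alternatives and did not pass with a trended and robust prior (adjusted p = 0.114). In the portal water it was at -1.74 and -0.342 in exposures 1 and 2, and in Little Grizzly Creek water at -3.18 and -3.09.

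P11AH2 had the largest rise among the changed features with all 6 values whose tailings mean did not depart from 0. It stood at 0.234, 0.39 and 0.053 in tailings exposures 1, 2 and 3, against -1.19, -0.27 and -0.885 in upstream exposures 1, 2 and 3. Tailings values were all positive and close to 0, while the upstream exposures were all negative and wide apart. It averaged 0.226 ± 0.169 in tailings and -0.782 ± 0.469 in upstream water (SD, n = 3 each), a difference of 1.01 (95% interval 0.447 to 1.57; limma, adjusted p = 0.0497). Neither mean passed against 0 (limma, adjusted p = 0.579 for tailings and 0.0986 for upstream water). It passed in 9 of 22 alternatives, so its call was not stable.

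A1P14 was the corresponding fall. It stood at -0.133, -0.339 and -0.137 in tailings exposures 1, 2 and 3, against 0.497, 0.196 and 0.611 in upstream exposures 1, 2 and 3. The tailings exposures were slightly negative and the upstream exposures positive, with upstream exposure 2 the nearest to 0. It averaged -0.203 ± 0.118 in tailings and 0.435 ± 0.215 in upstream water (SD, n = 3 each), a difference of -0.638 (95% interval -0.957 to -0.319; limma, adjusted p = 0.0383). Neither mean passed against 0 (limma, adjusted p = 0.314 for tailings and 0.11 for upstream water). It passed in 11 of 22 alternatives.

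The 5 features whose upstream mean departed from 0 were P4DB6, P5CG5, P8AC1, P8AE9 and P8AG5, named here because they are so few. All 5 had a negative upstream ratio and were higher in tailings water, by 0.692 to 0.881 log2 units. P4DB6 stood at 0.00263, 0.163 and 0.102 in tailings exposures 1, 2 and 3, against -0.669, -0.858 and -0.847 in upstream exposures 1, 2 and 3. Its upstream values were all low, and its tailings values lay at or just above 0. The difference was 0.881 (95% interval 0.628 to 1.13; limma, adjusted p = 0.00537), and the upstream mean of -0.791 ± 0.106 (SD, n = 3) had an adjusted p of 0.014 by limma. The other four had upstream exposures between -0.66 and -0.419 and tailings exposures between 0.085 and 0.465, with no overlap.

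P8AE9 was the one feature whose mean departed from 0 at both sites, upward in tailings and downward in upstream water. It stood at 0.25, 0.465 and 0.212 in tailings exposures 1, 2 and 3, against -0.419, -0.523 and -0.485 in upstream exposures 1, 2 and 3. It averaged 0.309 ± 0.136 in tailings water (limma, adjusted p = 0.0136) and -0.475 ± 0.0526 in upstream water (limma, adjusted p = 0.0332; SD, n = 3 each). Portal means of the 5 features lay between -0.479 and -0.195, and Little Grizzly Creek means between 0.0446 and 0.14, so for these features the portal values had the sign of the upstream values. None of the 5 differences passed by limma with the sign of upstream exposure 2 or 3 turned (adjusted p up to 0.98). For a single feature, 3 exposures against 3 cannot go below a two-sided exact permutation p of 0.1. The 9 named features with 3 values at each site discussed so far were at this bound. Any feature whose 3 values at each site do not overlap has this p, so it adds nothing to their selection.

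**Figure D3:**
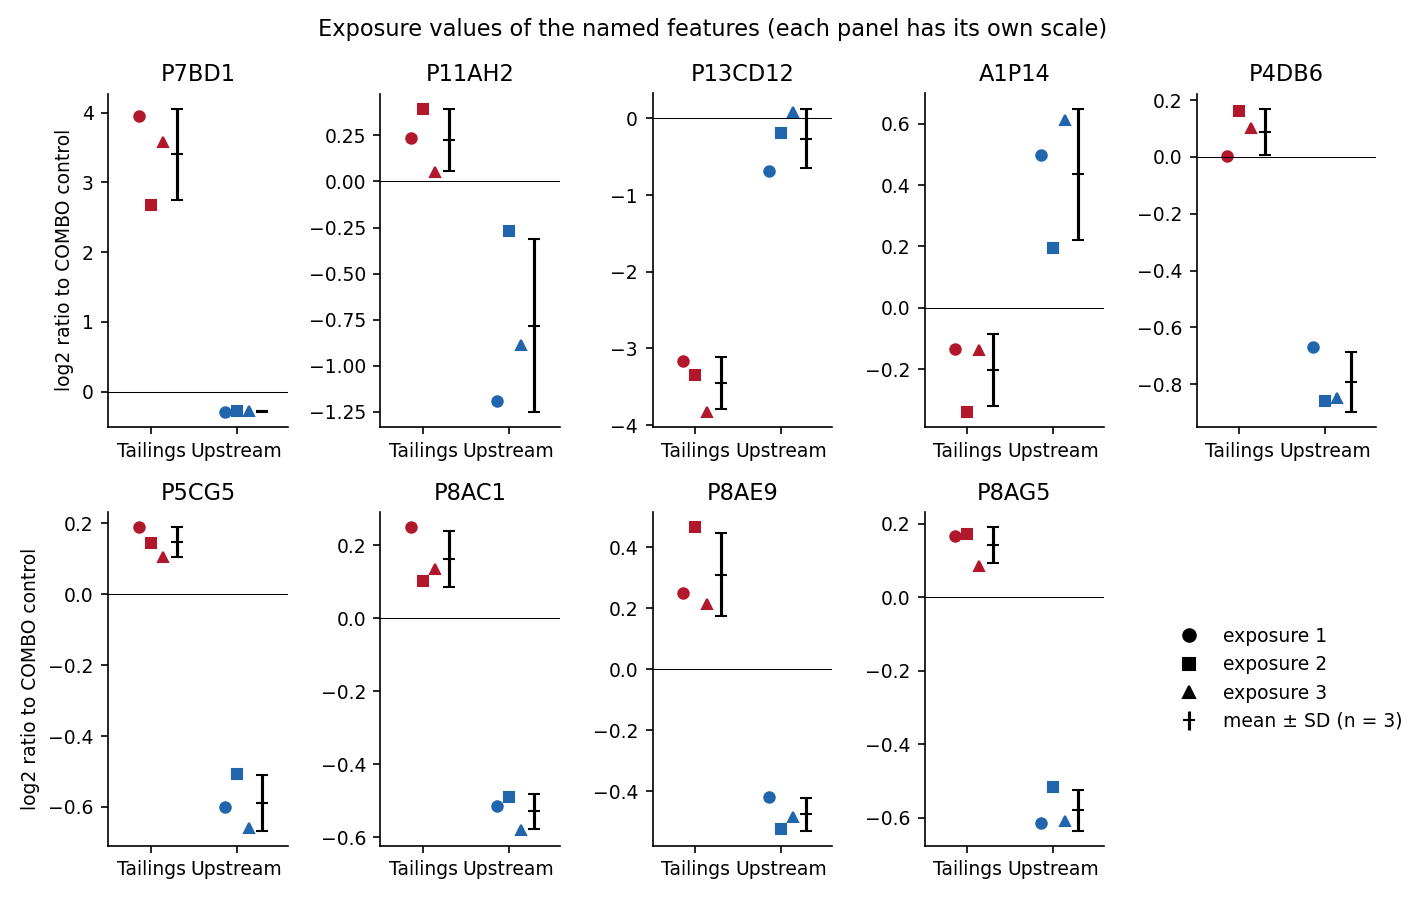
Log2 ratio to COMBO animals in each exposure of the 9 named features, tailings water left and upstream water right in each panel; symbols mark the exposure number, and bars the mean ± SD (n = 3). P7BD1 and P13CD12 differ by their tailings values, and P4DB6, P5CG5, P8AC1 and P8AG5 by negative upstream values beside tailings values near 0.

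The most extreme upstream ratios were not among the changed features. In 136 tested features the upstream mean was at least 1 log2 unit from 0, and 1 of these (0.735%) differed between the sites by limma, against 5.9% of all tested features. These features had exposure medians of -0.399, 0.89 and -1.94 in tailings exposures 1, 2 and 3, against -2.27, 0.564 and -2.46 in upstream exposures 1, 2 and 3. Exposure 2 was the high one at both sites, and the median SD among exposures was 1.35 in tailings and 1.59 in upstream water, against 0.177 and 0.142 over all tested features. The one feature called, A6J12, was singled out after its values were seen. It stood at 1.03, 1.61 and -0.294 in tailings exposures 1, 2 and 3, against -2.36 and -2.24 in upstream exposures 1 and 3, with upstream exposure 2 blank. Its difference of 3.08 (SE 0.651; limma, adjusted p = 0.0445) thus lacks the exposure in which features of this kind were high.

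Many features departed from 0 in tailings water without a difference from upstream water that passed. They numbered 254 of the 552 tailings departures, of which 144 had a positive and 110 a negative tailings mean. The 144 had a median of 0.587 in tailings and 0.0437 in upstream water, and the 110 had medians of -0.824 and -0.206. In upstream water the sign was the same in 86 of the 144 and in 97 of the 110. The median SE of the difference was 0.238 among the 254 and 0.138 among the 384 changed features. A difference that did not pass does not show that both waters acted alike.

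The same features were read in the 2 sites that did not enter the difference itself. Both sites did enter the common spread and the filter on values, so the readings are not independent of the selection. The 324 features higher in tailings than upstream water had exposure medians of -0.107, -0.0474 and -0.23 in portal water, all below 0. Their medians were 0.185, 0.121 and 0.251 in the 3 exposures to Little Grizzly Creek water, all above 0. The 60 lower ones had exposure medians of -0.239, -0.0814 and 0.288 in portal water. Medians of -1.48, -1.08 and -0.836 were measured for them in Little Grizzly Creek water. In portal exposure 3 only 28 of the 60 had a value. The Little Grizzly Creek mean had the sign of the difference in 97.8% of the 324 and 86.7% of the 60. Over all tested features this share was 65.1%. For the portal mean the shares were 36.7% and 56.7%, against 36.2% of all tested features. All sites were measured against COMBO animals, and the labels do not say which arrays shared control RNA, so these values may share a control with those of tailings or upstream water.

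The portal values of the larger rises were uneven. The 89 features higher by at least 1 unit had medians of 0.639, 0.0677 and 0.22 in portal exposures 1, 2 and 3, while in Little Grizzly Creek exposures 1, 2 and 3 their medians were 1.67, 1.49 and 1.44. For the 235 smaller rises the portal medians were -0.244, -0.0874 and -0.26, all on the upstream side of 0, and the Little Grizzly Creek medians 0.149, 0.0604 and 0.189, all on the tailings side.

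Feature identifiers fall into 20 groups of 384 by their leading letter and number, 7 beginning with A and 13 with P, and the changed features were unevenly spread over them. The labels do not say what the groups stand for on the array. Of 4678 tested P features, 300 were higher and 33 lower in tailings water. Of 1826 tested A features, 24 were higher and 27 lower. Changed features made up 7.12% of the P features and 2.79% of the A features, against 5.9% in all. The median SE of the difference was 0.146 among P features and 0.234 among A features, so a change of given size was harder to call among the A features, and the part of that in the counts was not tested.

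The A6 group held 19 of the 60 (31.7%) among 325 tested features, 5% of all tested. In the remaining groups the number of lower features was between 0 and 6. The 19 had a median of -1.63 in tailings water and of -0.232 in upstream water. Their exposure medians were -1.47, -1.65 and -1.63 in tailings exposures 1, 2 and 3, against -0.153, -0.385 and -0.0575 in upstream exposures 1, 2 and 3, and all their tailings values were negative. In Little Grizzly Creek water the exposure medians were -1.98, -2.05 and -1.55, and in portal water -0.255, -0.155 and 0.115. Over all tested A6 features the tailings medians were -0.135, -0.0421 and -0.18, so the group as a whole sat slightly below 0. Over all tested A features they were -0.0063, 0.0233 and -0.237, below those of A6 in exposure 3 only. Whether several of these features carry the same transcript was not tested, and with a trended and robust prior 2 of 20 lower features were from A6.

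The P8 group held the most rises, 39 of its 366 tested features (10.7%, against 4.98% in all), followed by P10 with 34 of 365 (9.32%). The 39 had a median of 0.446 in tailings and of -0.213 in upstream water, close to those of all 324. P8, with 5.63% of all tested features, also held 3 of the 5 features that departed from 0 in upstream water. Whether any of the 5 carry the same transcript was not tested. The P groups ranged from 14 rises in P6 and in P7 to these 39.

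**Figure D4:**
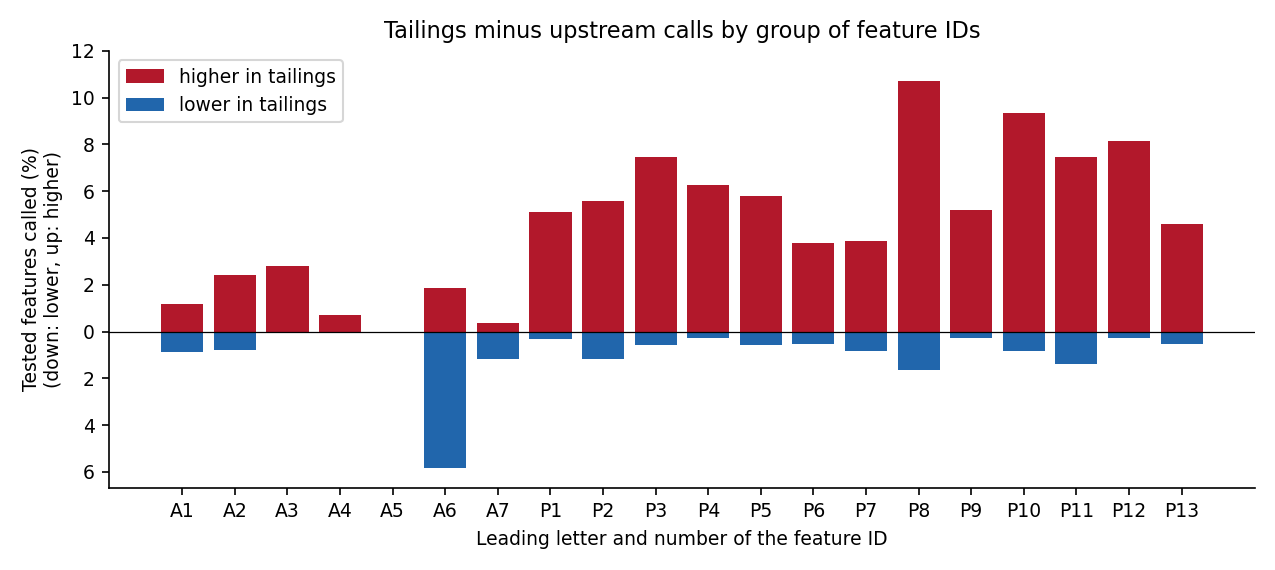
Share of tested features called by limma (adjusted p under 0.05) in each group of feature identifiers, in percent: bars above 0 show features higher in tailings than upstream water, bars below 0 those lower. A6 has the longest bar below 0 (5.85%), and P8 the longest above it (10.7%).

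The difference was also read in each dye orientation. In the arrays with exposed animals in Cy5 the 324 higher features had a median difference of 0.66 and the 60 lower ones of -1.13, and in the arrays with exposed animals in Cy3 these were 0.735 and -1.22. All 384 had the same sign in both orientations, against 92.6% and 93.5% of all tested features that had the sign of their mean. The 384 were chosen by the mean of both orientations, so this agreement is a description. Tested on 1 orientation alone, with 1 array an exposure, 31 features passed in Cy5 arrays and 138 in Cy3 arrays, of which 29 and 128 were among the 384.

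**Figure D5:**
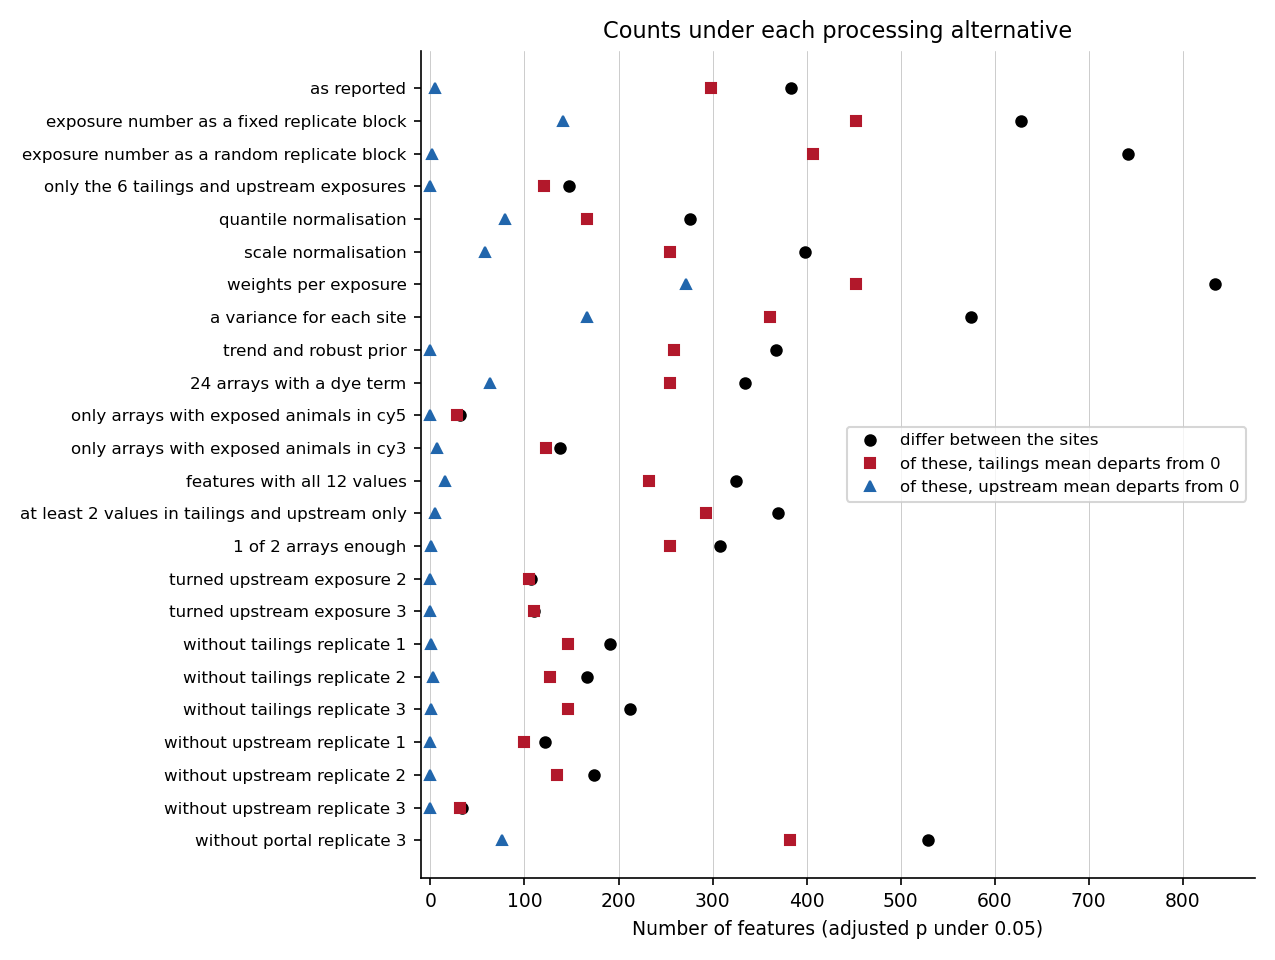
Number of features called under each processing alternative (rows): those that differ between tailings and upstream water (black circles), and of these, those whose tailings mean (red squares) or upstream mean (blue triangles) departs from 0. The total ranges from 31 to 835; the count for tailings exceeds that for upstream water in every row, and the count for upstream water ranges from 0 to 272.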

How the data were processed

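The authors deposited 1 log ratio per feature and array, read here as log2 values; neither base nor direction is given in the sources used here. Values reach 11.3, above the 4.82 that log10 of a 16-bit scan allows. The labels do not state background correction, normalisation or filters. Spot brightness was not used here; precision is limited by how many arrays there are. Both arrays of an exposure were averaged, blank if either was blank. limma 3.58.1 in R 4.3.3 was run on the 12 exposures, with a mean for every site and a common spread (8 residual degrees of freedom). In each contrast limma's p-values were adjusted by Benjamini-Hochberg over 6504 features. The tests against 0 leave out the control animals' spread where control RNA was shared. The labels call the exposures biological replicates; no 2 arrays were identical (0 pairs). The fit was tested on simulated data. Same-numbered exposures of both sites deviated from their site means with correlations of -0.215, 0.571 and 0.249. These differ in sign, and the numbers were not taken as pairs in the main fit. Whether they pair the sites is not settled, and fits with a replicate block are given below. Named features are, in each direction and with all 6 values apart, the largest difference with and without a tailings departure. Members, lists and tests were chosen with earlier results of these data known. The planned gene lists could not be tested, as no feature had a gene name. No label gives a batch or hybridisation day.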

Additional observations from a re-analysis of the deposited data

Results flagged for a closer look

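The effect against COMBO animals differed between tailings and upstream water by a direct test in 384 features, and this is what marks them for a closer look. Among the named ones the difference was 3.69 for P7BD1, 1.01 for P11AH2, -3.19 for P13CD12 and -0.638 for A1P14 (log2 units, tailings minus upstream). P7BD1 and P13CD12 had the farther mean in tailings water, and P11AH2 and A1P14 in upstream water; the calls of P11AH2 and A1P14 passed in 9 and 11 of 22 alternatives. Groups of 3 exposures are too small for a test of outlying samples.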

How the results depend on the processing

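Counts are given in this order: features that differed between the sites (384 in the report), tailings departures (552), upstream departures (5), and differing features with a tailings (298) or upstream departure (5). With the exposure number as a fixed replicate block they were 628, 852, 458, 453 and 141. As a random replicate block they were 742, 545, 2, 407 and 2, with a correlation within exposure number of 0.279. Whether equal numbers pair the exposures of these sites is not settled. With only the 6 exposures of both sites they were 147, 381, 0, 121 and 0. Quantile normalisation gave 276, 421, 210, 167 and 79, and scale normalisation 398, 494, 115, 255 and 58. Weights per exposure gave 835, 637, 614, 453 and 272, and a variance for each site 575, 520, 536, 361 and 167. A trended and robust prior gave 367, 463, 0, 259 and 0, and 24 arrays with a dye term 335, 594, 126, 255 and 63. Arrays with exposed animals in Cy5 alone gave 31, 249, 0, 28 and 0, and in Cy3 alone 138, 399, 9, 123 and 7. Features with all 12 values gave 325, 390, 18, 232 and 15, a value from 1 of 2 arrays 308, 510, 1, 255 and 1, and at least 2 values in both sites only 370, 543, 5, 293 and 5. Turning upstream exposure 2 gave 107, 380, 0, 105 and 0, and turning upstream exposure 3 gave 110, 338, 0, 110 and 0. Leaving out each of the 6 exposures in turn gave 33 to 212, 277 to 448, 0 to 3, 31 to 146 and 0 to 3. Without portal exposure 3, which had the most blanks (an alternative chosen after seeing the data), they were 529, 679, 123, 382 and 76. Some alternatives used fewer samples or arrays. What caused the changes in these counts was not tested. The share of calls higher in tailings water was 84.4%, and 64.8% with a dye term, 66% with weights per exposure, 71% and 73.6% with the fixed and random block, and 94.6% with the trended and robust prior. Of the named features, 9 were run under the alternatives and none of these changed sign; A6J12 was not run.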
